A study of Mus musculus with 10 samples.

Results

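The comparison described here sets the RNA of mouse neural stem cells that overexpress Lin28a against that of control cells after 3 passages in culture (P3). It used 2 of the 10 libraries of the series, 1 RNA-seq library with Lin28a and 1 without, joined on gene symbol. Genes with a value of at least 1 in either library were compared, which kept 12716 of 17919 genes and left out 5203. Both cultures came from ICR mice, from ventral midbrain tissue taken at embryonic day 10, and were passaged every 4 days. One received a lentivirus for Lin28a and the other was a mock control, with no other allele or agent stated. The sources used here do not give the promoter of the virus, the share of infected cells or the number of embryos per culture. Each group was 1 library. There was thus no replicate check and no test, and every value describes these libraries alone. The remaining libraries were RNA-seq at passage 1 (P1), small RNA at P1 and P3, and RNA bound to polysomes at P3. They enter only where they show the same genes in other libraries.

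Lin28a binds RNA and is found in early embryos and in stem cells. It attaches to the precursors of let-7 microRNAs and blocks their maturation, and let-7 in turn pairs through its seed with target mRNAs and lowers them. Stem cells of the ventral midbrain are patterned by the floor plate and give rise to dopamine neurons among others, and neural stem cells as a class make neurons early in development and glia later.

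The mature let-7 microRNAs are shown because they are the known point of action of Lin28a. Capitals mark the seed, bases 2 to 8 from the 5′ end, and the sequences are those of RefSeq on assembly GRCm38.p6, where all 9 guide strands were matched by name.
let-7a: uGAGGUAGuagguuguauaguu
let-7c: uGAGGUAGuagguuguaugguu
let-7i: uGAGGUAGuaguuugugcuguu
miR-98: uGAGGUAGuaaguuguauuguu
These 4 and the other 5 guide strands shared 1 seed, GAGGUAG. In the P3 small RNA libraries, with 8288085 microRNA counts in control and 8542827 with Lin28a, all 9 were lower with Lin28a. On the CPM scale, counts relative to the library total, let-7a was at 15412 in control and 2075 with Lin28a, a ratio of 0.135 with an exact 95% interval of 0.133 to 0.137 for counting error only. The ratio of miR-98 was 0.0970, the lowest of the 9, and that of let-7c 0.509, the highest. Summed over the 9, the level was 125388 CPM in control and 29657 with Lin28a. MicroRNAs with several loci may have been counted more than once, which was not tested.

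The transcript of Lin28a itself followed the labels. It stood at 0.0620 FPKM in control and 104 with Lin28a (log2 ratio 6.62), where FPKM is the number of fragments scaled to transcript length and library size, and the log2 ratio is taken after adding 1 to both values. Transcript from the virus and from the endogenous gene cannot be told apart in these gene values. Lin28b, the paralog, was under 1 FPKM in both libraries (0.273 and 0.115). Of the defining markers of neural stem cells, Sox2 was at 389.6 FPKM in control and 372 with Lin28a, and Vim at 2046 and 1745. Sox1, Msi1 and Nes, further stem cell markers, were between 38.6 and 97.7 FPKM across both libraries. Fabp7, a radial glia marker, was at 3418 and 1753 FPKM (log2 ratio -0.96). The ventral midbrain label rests on lower values. Otx2 was at 30.3 and 38.7 FPKM and En1 at 5.83 and 8.83, while the floor plate genes Foxa2 (0.830) and Lmx1a (4.61) were low in control.

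Most genes differed little. The median log2 ratio over the 12716 genes was -0.01, the middle 90% of genes lay between -0.64 and 0.60, and 88.2% were within 1.5-fold. Past 2-fold, 166 genes were higher with Lin28a (1.31% of genes compared) and 171 were lower (1.34%), together 2.65%. By any amount, 48.5% of genes were higher and 51.5% lower, which is the base for the P3 RNA values of each group of genes below. In polysome RNA the base was 62.8% higher and 37.2% lower, with a median log2 ratio of 0.06. At P1 it was 48.4% higher and 51.6% lower. When both libraries were scaled to the same sum over their genes, the median of all genes shifted to 0.10 and the counts past 2-fold became 329 higher and 176 lower, so that 65.1% of them were higher in place of 49.3%. The FPKM values summed to 571715 in control and 527477 with Lin28a. From the steps between low values, the most frequent ratio of depth, Lin28a over control, was 1.01, found in 79 of 1354 low genes. That ratio was sought only among values near 1, so it cannot show that the libraries were equally deep. Total depth is unknown, and between 12338 and 12461 genes reached 1 FPKM in each of the 4 RNA-seq libraries.

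The higher and the lower genes differed in level. Those higher with Lin28a were mostly low in control, with a median of 2.36 FPKM there and 8.47 with Lin28a, and 37 of them reached 20 FPKM in either library. Those that were lower had a median of 14.8 FPKM in control and 5.29 with Lin28a, and 69 reached 20 FPKM. Of the 166 higher genes 58 were under 1 FPKM in control and entered through the Lin28a library alone, and of the 171 lower genes 29 were under 1 FPKM with Lin28a. In the P1 RNA-seq libraries the 166 higher genes had medians of 15.9 FPKM in control and 18.0 with Lin28a. The 171 lower genes had medians of 2.22 and 1.91 FPKM there. Thus the levels at P1 were the reverse of those in P3 control, with the first set high and the second set low. Past 4-fold there were 14 genes higher and 11 lower.

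**Figure D1:**
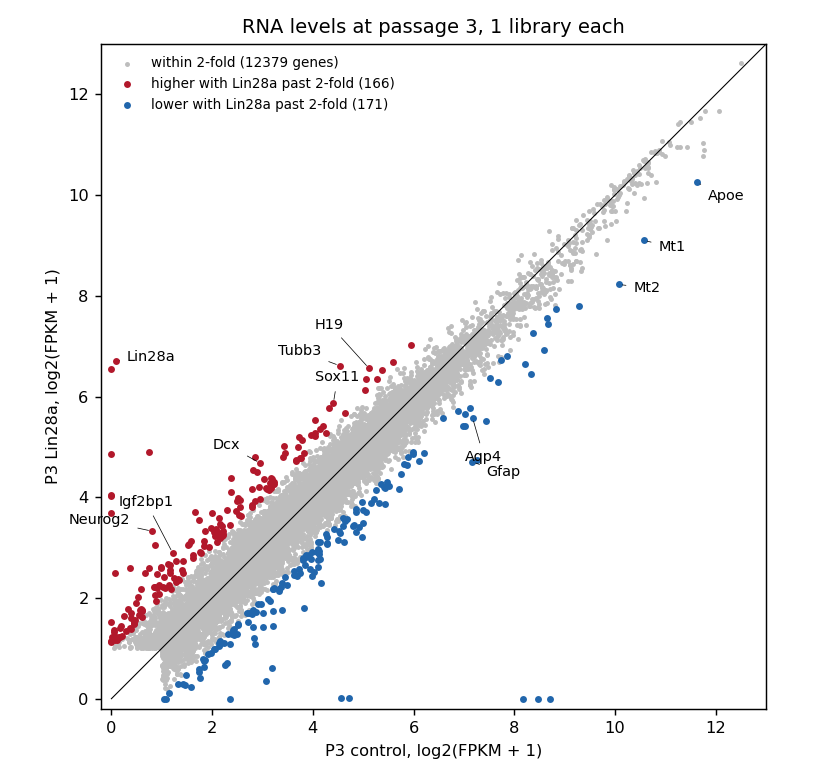
RNA levels in the P3 control library (x axis) and the P3 Lin28a library (y axis), both as log2(FPKM + 1), with 1 point per gene. Red points are the 166 genes higher and blue points the 171 genes lower past 2-fold, the line marks equal values, and the points on the axes near 0 are genes listed at or near the floor in 1 library.

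Known let-7 targets were mostly higher in the Lin28a library. Of 44 written targets 38 were compared, 33 of them above 0 and 7 past 2-fold higher, with none past 2-fold lower and a median log2 ratio of 0.45. Igf2bp1, a growth-promoting RNA-binding protein, had the highest ratio of the list, at 1.32 FPKM in control and 6.44 with Lin28a (log2 ratio 1.68). Tgfbr1, the type I TGF-beta receptor, was at 12.2 and 35.8 FPKM (log2 ratio 1.48). Hmga2, a chromatin protein of growing embryonic cells and a classic let-7 target, was at 1.43 and 5.68 FPKM (log2 ratio 1.46). Igf2bp2, a paralog of Igf2bp1, was at 5.88 and 16.8 FPKM (log2 ratio 1.37). The zinc finger gene Plagl2 had 4.82 and 11.5 FPKM (log2 ratio 1.10), and the retrotransposon-derived imprinted gene Peg10 37.8 and 80.3 FPKM (log2 ratio 1.07). The G1 cyclin gene Ccnd1, also a known target, went the other way, with 64.3 and 33.3 FPKM (log2 ratio -0.93). In the P1 libraries 31 of 39 targets were above 0, with a median of 0.14. In polysome RNA 30 of 41 targets were above 0, with a median of 0.22, where 62.8% of all genes were.

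Genes of the microRNA pathway were all above 0. All 20 members of the small RNA list were compared, their ratios ran from 0.01 to 1.26, and the median was 0.35. Ago2, the slicing Argonaute protein, was at 6.62 FPKM in control and 17.3 with Lin28a (log2 ratio 1.26). Dicer1, which cuts precursors to mature microRNAs and is itself a let-7 target, was at 8.39 and 18.3 FPKM (log2 ratio 1.04). These were the only members of that list past 2-fold. Zcchc11, a uridylyl transferase that tails let-7 precursors bound by Lin28a, was at 9.27 and 14.98 FPKM (log2 ratio 0.64). Drosha, Xpo5 and Dis3l2, which act before Dicer1 or degrade tailed precursors, were between 0.01 and 0.20 on the log2 scale. In the P1 libraries 13 of 20 members were above 0 (median 0.07) and none was past 2-fold. In polysome RNA 16 of 20 were above 0 (median 0.14), where 62.8% of all genes were.

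Neuronal genes came next. In a bulk library, fewer cells of a type and less RNA per cell cannot be told apart, for these genes and for the glial genes further on. Proneural factors, the transcription factors that commit progenitors to a neuronal fate, were low in control. Of 36 written factors 21 were compared and 15 were under 1 FPKM in both libraries. Among the 21, 19 were above 0 and 12 past 2-fold higher, with a median of 1.05. Since a factor absent from control could only enter through the Lin28a library, these counts describe the 21 and not the whole list. Of the 12 past 2-fold 10 were under 1 FPKM in control. With all 36 entered the median was 0.37, and among the 9 at 1 or more in both libraries it was 0.41. Neurog2, the proneural factor of the midbrain, was at 0.750 FPKM in control and 9.03 with Lin28a (log2 ratio 2.52), against 57.5 and 64.1 FPKM in the 2 P1 libraries. Nhlh2, a factor of newborn neurons, was at 0.288 and 5.02 FPKM (log2 ratio 2.23). Sox11, a factor of immature neurons, was the most abundant of those named, with 20.2 and 57.5 FPKM (log2 ratio 1.46). Insm1, a zinc finger factor of newborn neurons, had 3.47 and 10.1 FPKM (log2 ratio 1.31).

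Genes of the neuronal cytoskeleton were also mostly higher, at higher levels. Of 36 genes compared, 31 were above 0 and 11 past 2-fold higher, with none past 2-fold lower and a median of 0.53. Tubb3, the beta-tubulin of neurons, was at 22.2 FPKM in control and 96.8 with Lin28a (log2 ratio 2.08). Dcx, a microtubule-binding protein of migrating neurons, was at 6.73 and 24.6 FPKM (log2 ratio 1.73). The RNA-binding protein gene Elavl4 had 6.05 and 22.2 FPKM (log2 ratio 1.72) and the neuronal kinesin Kif5c 4.21 and 19.96 FPKM (log2 ratio 2.01). Each of these values with Lin28a was still under those of the P1 control library, where Tubb3 was at 359 FPKM, Dcx at 64.7, Elavl4 at 44.9 and Kif5c at 59.2. At P1 itself 35 of 36 members were lower with Lin28a, with a median of -0.24 and none past 2-fold. In polysome RNA at P3 30 of 34 were above 0 and 11 past 2-fold higher, with a median of 0.70.

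Genes of later neuronal function were split. Synaptic and neurosecretory genes had a median of 0.06, near that of all genes, with 22 above 0 and 19 below, although 4 were past 2-fold higher, 3 of them under 1 FPKM in control. They were the vesicle genes Syt4 (0.814 and 7.29 FPKM) and Rab3c (0.594 and 4.64), the granule protein Chgb (9.85 and 28.3) and the axonal adhesion gene Cntn2 (0.134 and 1.73). Summed over the list, the level was 1964 FPKM in control and 1588 with Lin28a, lower although 4 members were past 2-fold higher. Of 23 neuropeptide and transmitter genes in the files 12 were compared and 5 were past 2-fold higher, at levels under 5 FPKM. Of those 5, 4 were under 1 FPKM in control and entered through the Lin28a library alone. With all 23 entered the median was 0.23, and summed over them the level was 243 FPKM in control and 184 with Lin28a, lower overall. The genes past 2-fold included the glutamate vesicle transporter Slc17a6, with 0.861 and 4.55 FPKM, and the GABA-synthesizing enzyme Gad1, with 1.24 and 4.66. Axon guidance genes had a median of 0.20, with 29 of 39 above 0 and 5 past 2-fold higher. Those 5 were Nrp2, Slit1, Epha3, Slit2 and Dcc, which are receptors and ligands that steer growing axons. Slit1 and Slit2 are also counted in the ventral midbrain list below. Nrp2 was at 6.44 and 21.7 FPKM (log2 ratio 1.61), Slit1 at 4.69 and 14.9 FPKM (log2 ratio 1.49) and Epha3 at 3.43 and 11.1 FPKM (log2 ratio 1.45).

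**Figure D2:**
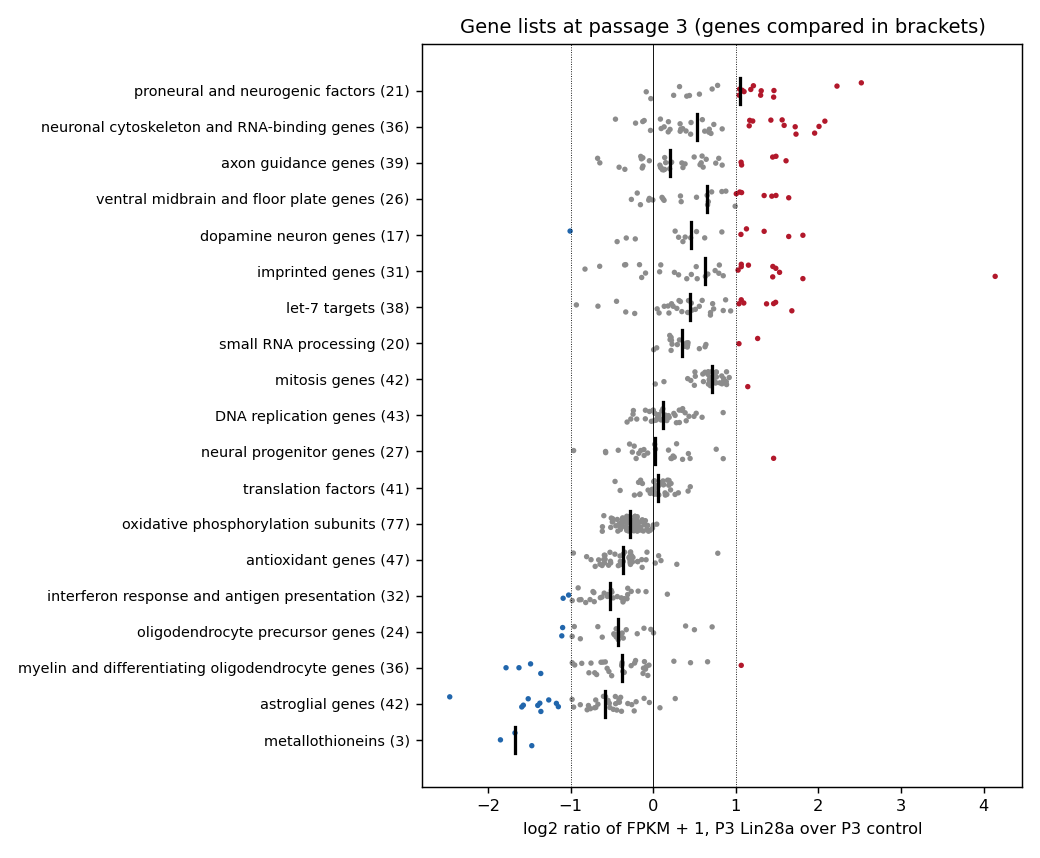
Log2 ratio of FPKM + 1, P3 Lin28a over P3 control (x axis), for the compared members of 19 gene lists, with 1 point per gene, a vertical bar at each list's median and dotted lines at 2-fold. Proneural, neuronal cytoskeleton, midbrain and mitosis genes lie mostly to the right of 0, and astroglial genes and metallothioneins to the left.

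Genes that mark the ventral midbrain and its dopamine lineage were partly higher. From the list of 34 genes for ventral midbrain and floor plate 26 were compared, 20 above 0 and 7 past 2-fold higher, with a median of 0.66. Of those 7, 3 were under 1 FPKM in control, and with all 34 entered the median was 0.40. Lmx1a and Lmx1b are homeobox factors that specify midbrain dopamine progenitors. Lmx1a was at 4.61 FPKM in control and 14.2 with Lin28a (log2 ratio 1.44). Lmx1b was at 0.971 and 5.15 FPKM (log2 ratio 1.64). Foxa2, a floor plate factor, was at 0.830 and 3.64 FPKM (log2 ratio 1.34), and Shh, the morphogen secreted by the floor plate, at 2.64 and 6.24 FPKM (log2 ratio 0.99), just under 2-fold. In P1 control Shh was at 50.6 FPKM and Foxa2 at 18.4, so the Lin28a library at P3 held only part of those levels.

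Of 27 dopamine neuron genes 17 were compared, 5 past 2-fold higher and 1 lower, with a median of 0.45. Of the 5 higher genes 4 were under 1 FPKM in control and entered through the Lin28a library alone, all but Dlk1. Lmx1b and Foxa2 are among the 5 and are also counted in the ventral midbrain list, so the 2 lists are not separate. With all 27 entered the median was 0.33. Th, the rate-limiting enzyme of dopamine synthesis, was at 0.125 and 1.35 FPKM (log2 ratio 1.06), so its level was low in both libraries. Dlk1, a transmembrane ligand found in dopamine neurons, was at 2.34 and 10.7 FPKM (log2 ratio 1.81), and the peptide gene Adcyap1 at 0.0709 and 1.34 FPKM (log2 ratio 1.13). Vgf, a secreted neuronal peptide precursor, was the lower one, with 13.5 and 6.23 FPKM (log2 ratio -1.01). Both lists had medians just under 0 in the P1 libraries (-0.07 for ventral midbrain and -0.13 for dopamine neuron genes) and medians of 0.73 and 0.67 in polysome RNA.

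Homeobox and related genes of other regions differed in both directions. Of 32 compared, 20 were above 0 and 6 past 2-fold higher, with a median of 0.29. Of the 6 higher genes 5 were under 1 FPKM in control and entered through the Lin28a library alone. With all 44 entered the median was 0.21, and among the 23 at 1 or more in both libraries it was -0.03. The forebrain gene Dlx2 was at 0.936 and 3.21 FPKM (log2 ratio 1.12). Dlx1os, the transcript on the strand opposite Dlx1, was at 0.402 and 2.73 FPKM (log2 ratio 1.41), and reads from the 2 strands may not have been separated. Tal2, a factor of midbrain GABA neurons, was at 0.190 and 2.12 FPKM (log2 ratio 1.39), and Gata2, of the same neurons, had no estimate in control, where it stood at the floor, and 1.89 FPKM with Lin28a. The progenitor factors Dbx1 and Dbx2 differed in opposite directions. Dbx1 was at 2.58 and 7.71 FPKM (log2 ratio 1.28) and Dbx2 at 29.3 and 9.61 FPKM (log2 ratio -1.52). Pax6, a progenitor factor of several regions, was at 9.01 and 11.2 FPKM (log2 ratio 0.28).

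Shared progenitor genes lay around 0. The neural progenitor list had a median of 0.02, with 14 members above 0 and 13 below, and Hmga2 alone past 2-fold. Prom1, a membrane protein of neural stem cells, was at 21.6 and 39.6 FPKM (log2 ratio 0.85). Slc1a3, a glutamate transporter of radial glia and astrocytes, was at 354 and 237 FPKM (log2 ratio -0.58). Notch pathway genes had a median of 0.15 and none of 24 was past 2-fold. Among them Hes5, a main Notch target that holds cells as progenitors, was at 116 FPKM in control and 117 with Lin28a. Lfng, which modifies Notch receptors, was at 111 and 74.4 FPKM (log2 ratio -0.57), and Rbpj, the nuclear factor of the pathway, at 28.6 and 42.3 FPKM (log2 ratio 0.55).

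Of the 6 signalling lists, Hedgehog genes had the highest median. Of 13 compared, 10 were above 0, with a median of 0.61, and none was past 2-fold higher. Among the 9 at 1 or more in both libraries the median was 0.48, and with all 15 entered it was 0.53. Ptch1, the receptor and a direct target of the pathway, was at 45.8 and 72.6 FPKM (log2 ratio 0.65), and the target and effector Gli1 at 0.664 and 1.64 FPKM (log2 ratio 0.67). The ligand Dhh was past 2-fold lower, with 4.37 and 1.39 FPKM (log2 ratio -1.17). At P1 8 of 12 Hedgehog genes were below 0, with a median of -0.10. In polysome RNA 10 of 12 were above 0, with a median of 0.22, where 62.8% of all genes were. Wnt pathway genes had a median of 0.10 and 3 members past 2-fold higher. Those were Lef1, a nuclear effector, with 1.68 and 5.68 FPKM (log2 ratio 1.32), the agonist Rspo2 with 15.6 and 35.97 FPKM (log2 ratio 1.16), and the feedback inhibitor Apcdd1 with 47.4 and 102 FPKM (log2 ratio 1.09). FGF genes had a median of -0.14. Fgfbp3, a carrier of FGF ligands, was at 32.2 and 80.8 FPKM (log2 ratio 1.30) and Etv4, an FGF-induced factor, at 20.6 and 9.95 FPKM (log2 ratio -0.98). BMP and Id genes had a median of -0.17 with none past 2-fold, and the abundant Id genes were lower, with Id2 at 241 and 145 FPKM (log2 ratio -0.73) and Id3 at 597 and 413 FPKM (log2 ratio -0.53). In the polysome libraries Id2 and Id3 were higher with Lin28a, at 94.8 and 133 RPKM and at 241 and 317 RPKM. RPKM is the read-based counterpart of FPKM.

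Insulin-like growth factor genes differed in both directions. Over the list of 32 compared genes of insulin, IGF and mTOR signalling the median was 0.11. The ligand Igf2 was at 1.87 and 7.29 FPKM (log2 ratio 1.53). Igfbp3 and Igfbp4, binding proteins that hold the ligands outside the cell, were lower. Igfbp3 was at 126 and 41.9 FPKM (log2 ratio -1.56) and Igfbp4 at 239.8 and 119.96 FPKM (log2 ratio -0.99). Igfbp3 was also lower with Lin28a at P1, at 101 and 61.7 FPKM, and in polysome RNA, at 141 and 87.98 RPKM.

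Genes of mitosis were higher throughout. All 42 written genes were compared, all 42 were above 0, from 0.03 to 1.15, and the median was 0.71, with 1 past 2-fold. Their summed level was 1019.9 FPKM in control and 1691 with Lin28a. Espl1, the protease that releases sister chromatids, was at 3.29 FPKM in control and 8.49 with Lin28a (log2 ratio 1.15). The mitotic kinase Plk1 was at 28.5 and 53.7 FPKM (log2 ratio 0.89), the checkpoint kinase Bub1b at 15.7 and 29.8 FPKM (log2 ratio 0.89) and the proliferation marker Mki67 at 17.3 and 30.1 FPKM (log2 ratio 0.76). Genes of DNA replication had a median of 0.12, with 33 of 43 above 0 and none past 2-fold. The difference between the medians of the 2 lists was not tested. Ccna2, the cyclin of S and G2 phase, was highest among them, with 45.3 and 82.4 FPKM (log2 ratio 0.85), and the helicase subunit Mcm7 was at 28.8 and 40.9 FPKM (log2 ratio 0.49).

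The other libraries showed another order of these lists. At P1 all 44 replication genes were above 0, with a median of 0.33, and 40 of 42 mitosis genes were, with a median of 0.16. In polysome RNA at P3 the mitosis median was 0.04, below the 0.06 of all genes there, with 27 of 42 above 0, where 62.8% of all genes were. Plk1, for example, was at 22.6 and 23.7 RPKM and Mki67 at 47.98 and 42.8. The mitosis genes of the polysome libraries thus lay near the level of all genes there. Shared or separate cultures for the RNA-seq and polysome assays are not stated in the labels. Of cell cycle inhibitors and p53 targets, 18 were above 0 and 18 below, with a median of 0.02. The inhibitors Cdkn2b and Cdkn2a, which block the G1 cyclin kinases, were at 57.2 and 23.8 FPKM (log2 ratio -1.23) and at 11.7 and 5.85 FPKM (log2 ratio -0.89). Mycn, a driver of progenitor growth and a let-7 target, was at 4.25 and 9.06 FPKM (log2 ratio 0.94), and Myc at 12.1 and 8.64 FPKM (log2 ratio -0.44).

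Promoters of 4 mitosis genes are shown because genes of this list differed together. Many mitotic promoters carry a cell cycle gene homology region (TTTGAA or TTCGAA) downstream of CCAAT boxes. Each stretch holds the last 150 bases before the gene's start on assembly GRCm38.p6 of RefSeq, read 5′ to 3′ on the strand of the gene. Capitals mark both motifs, searched on both strands, so that TTCAAA and ATTGG are matches on the opposite strand. The 4 were chosen after their values were seen, among members with both motifs in the stretch.
Espl1, chr15:102296143-102296292, plus strand: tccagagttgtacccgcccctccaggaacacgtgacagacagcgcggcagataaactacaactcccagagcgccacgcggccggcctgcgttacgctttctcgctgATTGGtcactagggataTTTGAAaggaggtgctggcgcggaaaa
Ube2c, chr2:164769779-164769928, plus strand: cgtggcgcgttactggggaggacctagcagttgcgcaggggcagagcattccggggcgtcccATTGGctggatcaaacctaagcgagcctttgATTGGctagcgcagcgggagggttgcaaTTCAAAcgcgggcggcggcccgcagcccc
Kif11, chr19:37376232-37376381, plus strand: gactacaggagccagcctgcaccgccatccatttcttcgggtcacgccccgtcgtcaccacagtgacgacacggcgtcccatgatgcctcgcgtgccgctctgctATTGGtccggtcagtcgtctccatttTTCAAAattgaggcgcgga
Top2a, chr11:99024190-99024339, minus strand: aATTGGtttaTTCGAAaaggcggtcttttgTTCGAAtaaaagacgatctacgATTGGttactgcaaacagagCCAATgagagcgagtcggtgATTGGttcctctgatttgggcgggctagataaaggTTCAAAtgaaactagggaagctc
Ube2c, the E2 enzyme of the anaphase-promoting complex, was at 73.9 and 122 FPKM (log2 ratio 0.71). The spindle motor Kif11 was at 12.02 and 20.3 FPKM (log2 ratio 0.71) and the topoisomerase Top2a at 54.95 and 93.1 FPKM (log2 ratio 0.75). In the 250 bases before the start, the homology region was found in 13 of 35 mitosis genes with a window (37.1%) and in 14.1% of the 9490 compared genes with one. CCAAT was found in 25 of 35 (71.4%) and in 41.3% of all. These matches describe the letters in the window, not binding.

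Glial genes were lower. Of 46 astroglial genes 42 were compared, 40 below 0 and 10 past 2-fold lower, with none past 2-fold higher and a median of -0.59. Gfap, the intermediate filament of astrocytes, was at 142 FPKM in control and 25.01 with Lin28a (log2 ratio -2.46). The water channel Aqp4 was at 143 and 46.8 FPKM (log2 ratio -1.59) and the angiotensin precursor Agt at 297 and 99.3 FPKM (log2 ratio -1.57). Apoe, the main lipid carrier of astrocytes, was at 3154 and 1218 FPKM (log2 ratio -1.37) and stayed among the abundant transcripts of both libraries. The summed level of the list was 20986 FPKM in control and 12369.6 with Lin28a. In the P1 libraries that sum was 5622 and 4832 FPKM, and Gfap, Agt and Aqp4 were at 0.743, 0.323 and 5.42 FPKM in control. Gfap, Agt and Aqp4 were thus low or near absent at P1. Other members past 2-fold lower were not, with Apoe at 56.0 FPKM in P1 control and Mlc1 (log2 ratio -1.40 at P3) at 37.8. Nfia and Nfib, factors that open the astroglial program, were at 0.08 and 0.27 on the log2 scale, the 2 members above 0. In polysome RNA 31 of 40 were below 0 and 3 past 2-fold lower, with a median of -0.27.

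Oligodendrocyte genes were lower by less. Of 24 precursor genes 20 were below 0 and 2 past 2-fold lower, with a median of -0.42. Those were the factor Olig1, at 456 and 213 FPKM (log2 ratio -1.10), and the matrix proteoglycan Bcan, at 329 and 152 FPKM (log2 ratio -1.11). Sox10, which directs the whole lineage, was at 74.8 and 54.6 FPKM (log2 ratio -0.45), and Gpr17, a receptor of committed precursors, at 109 and 54.6 FPKM (log2 ratio -0.98). Of 36 myelin and differentiation genes 32 were below 0, 4 past 2-fold lower and 1 past 2-fold higher, with a median of -0.38. Opalin, a myelin membrane protein, was at 6.25 and 1.11 FPKM (log2 ratio -1.78). The glial connexin Gjc3 was at 6.15 and 1.32 FPKM (log2 ratio -1.62) and the iron carrier Trf at 32.3 and 11.99 FPKM (log2 ratio -1.36). The exception past 2-fold was the zinc finger gene Zfp536, with 1.68 and 4.62 FPKM (log2 ratio 1.07). In polysome RNA 12 of 22 members of this second list were above 0, with a median of 0.04, where 62.8% of all genes were. The precursor list was lower there, with 15 of 18 below 0 and a median of -0.50. At P1 both lists were lower, with 17 of 19 precursor genes below 0 (median -0.42) and 21 of 24 myelin and differentiation genes (median -0.16).

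Metallothioneins, small proteins that bind zinc and copper, were among the abundant genes with the lowest ratios. Mt1 was at 1519.6 FPKM in control and 548 with Lin28a (log2 ratio -1.47). Mt2 was at 1076 and 298 FPKM (log2 ratio -1.85) and the brain form Mt3 at 386 and 120.3 FPKM (log2 ratio -1.67). All 3 were past 2-fold lower. They were also lower with Lin28a at P1, where Mt1 was at 89.7 and 52.7 FPKM, Mt2 at 41.4 and 27.1, and Mt3 at 46.5 and 24.3. In polysome RNA Mt1 was at 367 and 183 RPKM, Mt2 at 104 and 48.4, and Mt3 at 361 and 196. The direction was therefore the same in 3 pairs of libraries that share none. Astrocytes are a known site of Mt1, Mt2 and Mt3, and the astroglial list was lower in the same 3 pairs. The part of the astroglial shift in these values was not tested.

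**Figure D3:**
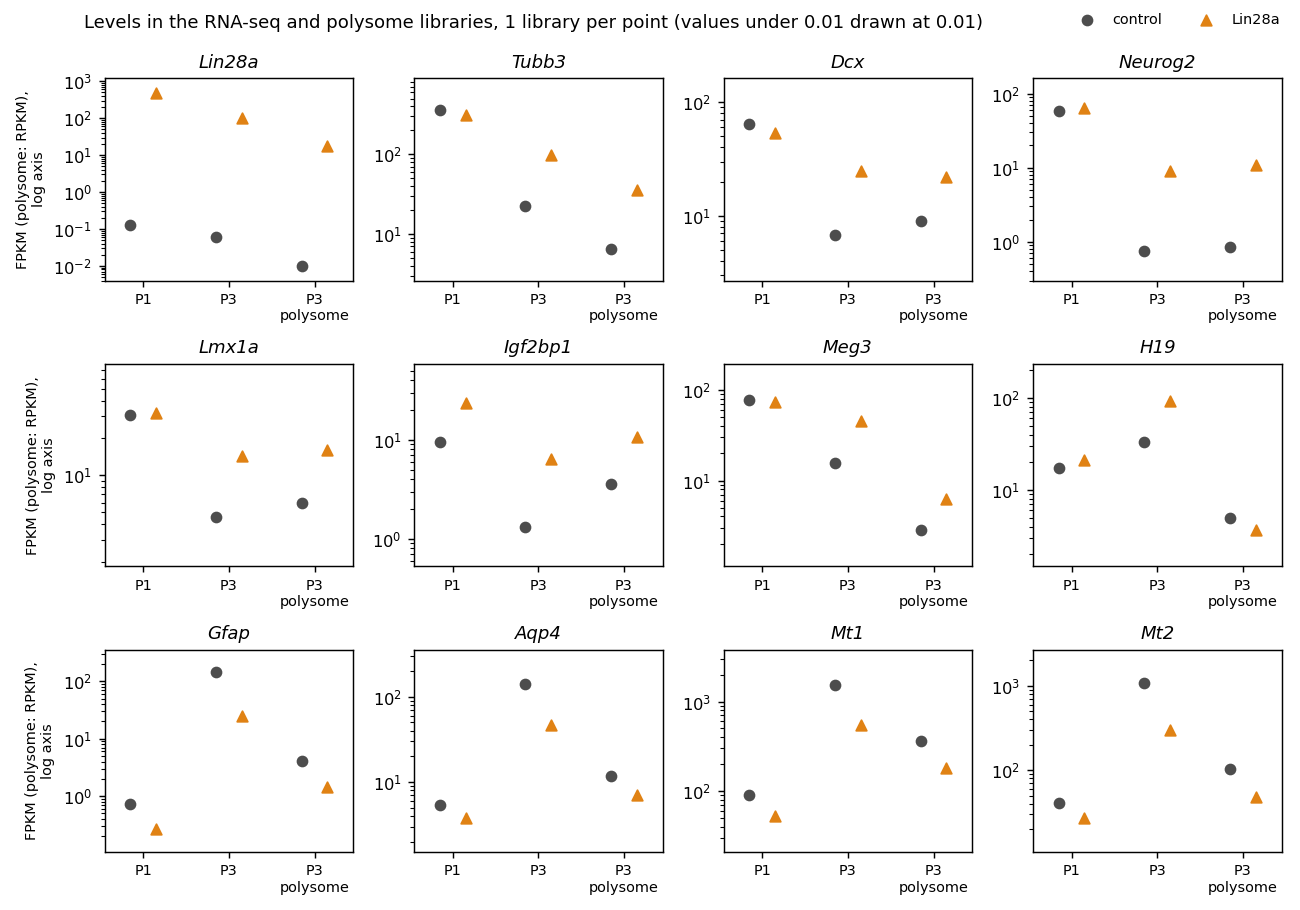
Levels of 12 genes in each RNA-seq library (FPKM) and polysome library (RPKM), on log axes that differ between panels, with 1 point per library, grey circles for control and orange triangles for Lin28a. Tubb3, Dcx and Neurog2 are lower in both P3 RNA-seq libraries than at P1, and among the RNA-seq libraries they are least in P3 control. Gfap, Aqp4, Mt1 and Mt2 are highest in P3 control RNA.

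Genes of metabolism were mostly lower by small amounts. Antioxidant genes were below 0 in 42 of 47 cases with none past 2-fold, and their median was -0.36. The glutathione transferase Gstm1 was at 653 and 373 FPKM (log2 ratio -0.81), the peroxiredoxin Prdx6 at 249 and 148 FPKM (log2 ratio -0.75), and Nfe2l2, the factor that induces many such genes, at 56.6 and 34.4 FPKM (log2 ratio -0.70). Slc7a11, a cystine transporter, was the highest member with 2.45 and 4.93 FPKM (log2 ratio 0.78). The motif known for that response (TGACNNNGC, both strands) was found in the 250 bases before the start in 8 of 40 members with a window (20%) and in 14.2% of all. At P1 32 of 46 antioxidant genes were below 0, with a median of -0.07. In polysome RNA 22 of 44 were below 0, where 37.2% of all genes were, and the median was 0.01. Subunits of oxidative phosphorylation were below 0 in 75 of 77 cases, from -0.62 to 0.04, with a median of -0.28. Cytochrome c, Cycs, was at 46.2 and 29.8 FPKM (log2 ratio -0.61). In the P1 libraries their median was -0.05 and in polysome RNA 0.07.

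Glycolysis and hypoxia-induced genes had a median of -0.22, with 38 of 50 below 0. The vasoactive peptide gene Adm was past 2-fold lower, with 16.7 and 7.66 FPKM (log2 ratio -1.03), and the monocarboxylate carrier Slc16a1 was at 38.03 and 19.5 FPKM (log2 ratio -0.93). At P1 the median of this list was -0.35, with 41 of 48 below 0 and 3 past 2-fold lower. In polysome RNA it was -0.17, with 33 of 48 below 0. Cholesterol synthesis genes had a median of -0.26, with 25 of 29 below 0, and the desaturase Scd1, listed with them, was at 398 and 231 FPKM (log2 ratio -0.79). At P1 the cholesterol median was -0.13, with 25 of 30 below 0. In polysome RNA it was 0.05, with 17 of 29 above 0, where 62.8% of all genes were. Genes of the ribosome and of translation were near 0. Cytosolic ribosomal protein genes had a median of 0.04. One of 80, Rps27, was past 2-fold lower, with 152 and 25.6 FPKM (log2 ratio -2.53), a value made uncertain by near-identical copies. Translation factors had a median of 0.05 and none past 2-fold. Scaling to the same sum left the antioxidant, oxidative phosphorylation, glycolysis and cholesterol medians below 0.

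Genes of the interferon response and of antigen presentation were lower as well. Of 46 written genes 32 were compared, 31 of them below 0 and 2 past 2-fold lower, with a median of -0.53. Their summed level was 841 FPKM in control and 524 with Lin28a. B2m, the light chain of class I molecules, was at 109 FPKM in control and 58.3 with Lin28a (log2 ratio -0.89), and the heavy chain H2-K1 at 52.95 and 28.5 FPKM (log2 ratio -0.87). The peptide transporter Tap2 was at 11.6 and 5.71 FPKM (log2 ratio -0.91). The immunoproteasome subunit Psmb8 was at 4.35 and 1.52 FPKM (log2 ratio -1.09) and the interferon-induced gene Ifi27 at 5.64 and 2.27 FPKM (log2 ratio -1.02). At P1 14 of 24 members were above 0, with a median of 0.09, and B2m was at 27.4 and 31.04 FPKM. In polysome RNA 18 of 25 were below 0, with a median of -0.20, and B2m was at 33.1 and 37.9 RPKM. Microglia, the resident immune cells, are a known site of such genes. Of 20 microglial markers 18 were under 1 FPKM in both libraries, and the phagocyte gene Cd68 was at 1.54 and 1.64 FPKM (log2 ratio 0.06).

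Promoters of 4 interferon genes are shown, again the last 150 bases before the start on GRCm38.p6, because genes of this list differed together. Capitals mark the interferon-stimulated response element searched (GAAA, 2 bases of any kind, then GAAA, on both strands), which overlapping matches can share, as in Bst2 and Irgm1. They were chosen after their values were seen, among members with a match in the stretch.
B2m, chr2:122147537-122147686, plus strand: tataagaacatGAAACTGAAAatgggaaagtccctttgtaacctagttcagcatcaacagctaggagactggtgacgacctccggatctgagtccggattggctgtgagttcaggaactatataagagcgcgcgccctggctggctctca
Bst2, chr8:71537473-71537622, minus strand: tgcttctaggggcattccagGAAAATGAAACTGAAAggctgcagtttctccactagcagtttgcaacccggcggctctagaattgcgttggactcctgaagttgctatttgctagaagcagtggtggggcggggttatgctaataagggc
Ifitm2, chr7:140955962-140956111, minus strand: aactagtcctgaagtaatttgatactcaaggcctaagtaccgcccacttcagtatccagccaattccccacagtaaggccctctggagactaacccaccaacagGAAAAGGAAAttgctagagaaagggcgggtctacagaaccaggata
Irgm1, chr11:48871421-48871570, minus strand: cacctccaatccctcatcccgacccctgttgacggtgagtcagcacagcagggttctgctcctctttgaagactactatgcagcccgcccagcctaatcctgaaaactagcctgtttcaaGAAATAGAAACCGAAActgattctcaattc
Bst2, which tethers enveloped viruses, was at 18.8 and 10.2 FPKM (log2 ratio -0.82). The membrane protein Ifitm2 was at 238 and 157 FPKM (log2 ratio -0.59) and the GTPase Irgm1 at 2.74 and 0.895 FPKM (log2 ratio -0.98). In the 250 bases before the start, the element was found in 10 of 28 list members with a window (35.7%) and in 2.76% of the 9490 compared genes with one. No match says only that these letters are not in that window.

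Chemokines and cytokines had a median of -0.31, with 19 of 25 below 0. The interleukins Il33 and Il18, signals of innate immunity, were at 13.9 and 7.66 FPKM (log2 ratio -0.79) and at 52.5 and 28.97 FPKM (log2 ratio -0.84). Cxcl1, a neutrophil chemokine, went the other way, with 1.254 and 5.28 FPKM (log2 ratio 1.48). It was also higher with Lin28a at P1, at 0.124 and 1.94 FPKM. In polysome RNA Cxcl1 was lower with Lin28a, at 17.6 and 10.6 RPKM. Immediate early genes, which respond to handling within minutes, had a median of -0.09, which became 0.02 when libraries were scaled to the same sum. Fos was at 22.3 and 12.7 FPKM (log2 ratio -0.77) and Egr1 at 8.50 and 3.82 FPKM (log2 ratio -0.98).

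Genes of the extracellular matrix were lower in part. Of 51 compared collagens, laminins, integrins and related genes 37 were below 0, with a median of -0.22, and 2 were past 2-fold lower. The protease inhibitor Timp1 was at 27.9 and 8.90 FPKM (log2 ratio -1.54) and the collagen gene Col16a1 at 21.6 and 7.90 FPKM (log2 ratio -1.35). Itga7, an integrin of astrocytes and muscle, was at 45.7 and 22.7 FPKM (log2 ratio -0.98).

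Imprinted genes, which are expressed from 1 parental allele, included several abundant transcripts with high ratios. Of 36 written genes 31 were compared, 24 above 0 and 10 past 2-fold higher, 2 of them from under 1 FPKM in control, with a median of 0.63. Meg3 and Rian are long non-coding RNAs of 1 imprinted cluster that also holds Dlk1. Meg3 was at 15.5 FPKM in control and 45.2 with Lin28a (log2 ratio 1.48), Rian at 18.99 and 53.5 FPKM (log2 ratio 1.45) and Dlk1 as given above. H19, a non-coding RNA, and Igf2 belong to another cluster. H19 was at 33.6 and 93.5 FPKM (log2 ratio 1.45) and Igf2 at 1.87 and 7.29 FPKM (log2 ratio 1.53). At P1 the Meg3 values were 78.03 and 73.3 FPKM and those of H19 17.1 and 21.2, so control and Lin28a were closer there. In polysome RNA H19 was at 5.02 and 3.72 RPKM, lower with Lin28a, while Igf2 was at 0.714 and 1.75. Igf2 and Dcn are also markers of mesenchymal cells, and Fbln1, another such marker, was at 7.83 and 18.6 FPKM (log2 ratio 1.15). The part of mesenchymal cells in these values was not tested. Snurf had the highest ratio of the list, with 0.684 and 28.7 FPKM, but it overlaps Snrpn in 1 transcript and its value is uncertain.

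Chromatin genes were slightly higher. DNA methylation and Polycomb genes had a median of 0.17, with 22 of 35 above 0 and none past 2-fold. The Polycomb subunit Cbx2 was at 5.52 and 11.5 FPKM (log2 ratio 0.94) and the histone methyltransferase Ezh2 at 21.2 and 33.6 FPKM (log2 ratio 0.64). Chd7, a remodeller of neural progenitors, was at 14.4 and 26.4 FPKM (log2 ratio 0.83). Histone genes of the replication-dependent kind have mRNAs without a poly(A) tail, and the libraries are labelled as poly(A)-selected, so their low values (sums of 71.2 FPKM in control and 44.1 with Lin28a) are not read further.

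Lists of other cell types differed in how many of their markers reached 1 FPKM in either library. None of the 4 erythroid genes in the files was compared. Endothelial genes gave 5 of 15, with sums over the list of 30.1 FPKM in control and 23.8 with Lin28a, and the receptor Flt1 was past 2-fold lower at 4.31 and 1.46 FPKM (log2 ratio -1.11). Neural crest and Schwann genes gave 7 of 16, with sums of 354 and 231 FPKM, and its member Sox10 is also expressed by oligodendrocytes. Mesenchymal and pericyte genes gave 15 of 20, with sums of 483 and 334 FPKM. Within that list Igf2, Fbln1 and Dcn were past 2-fold higher and Thy1 and Acta2 past 2-fold lower. The smooth muscle actin Acta2, with 211 and 105 FPKM (log2 ratio -1.004), was among the abundant members. Ependymal and choroid genes gave 9 of 14, with sums of 122 and 104 FPKM and a median of -0.02 that turned positive under 2 other scalings. Foxj1, the factor of ciliated cells, was at 68.4 and 44.1 FPKM (log2 ratio -0.62).

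The genes past 2-fold in P3 RNA were then followed in libraries that had no part in choosing them. In polysome RNA at P3, 117 of 12289 genes were higher with Lin28a past 2-fold (0.952%) and 15 lower (0.122%), and 62.8% were higher by any amount. Of the 166 higher genes 149 were compared there, 142 of them higher and 71 past 2-fold higher, with a median log2 ratio of 0.97 against 0.06 for all genes. Those 71 were 47.7% of the 149 and 60.7% of the 117. Lin28a itself, overexpressed by design, is counted among them. Of the 171 lower genes 144 were compared, 117 of them lower and 11 past 2-fold lower, with a median of -0.44. The 11 were 7.64% of the 144 and 73.3% of the 15. No gene went past 2-fold in the opposite direction. Both assays may have used the same cultures, so these values may not be independent of the P3 RNA.

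At P1 the same genes differed far less. Of 12564 genes compared there 17 were higher past 2-fold (0.135%) and 12 lower (0.0955%), together 0.231%, and by any amount 48.4% were higher and 51.6% lower. The 159 higher genes with a P1 value had a median ratio of 0.02, with 83 above 0 and 8 past 2-fold higher, which is 5.03% of the 159 and 47.1% of the 17. Both the 8 and the 17 include Lin28a itself, which was overexpressed by design. The 125 lower genes had a median of -0.28, against -0.01 for all genes, with 98 below 0. Past 2-fold at P1, 2 of them were lower and 2 higher, the latter both short non-coding genes.

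**Figure D4:**
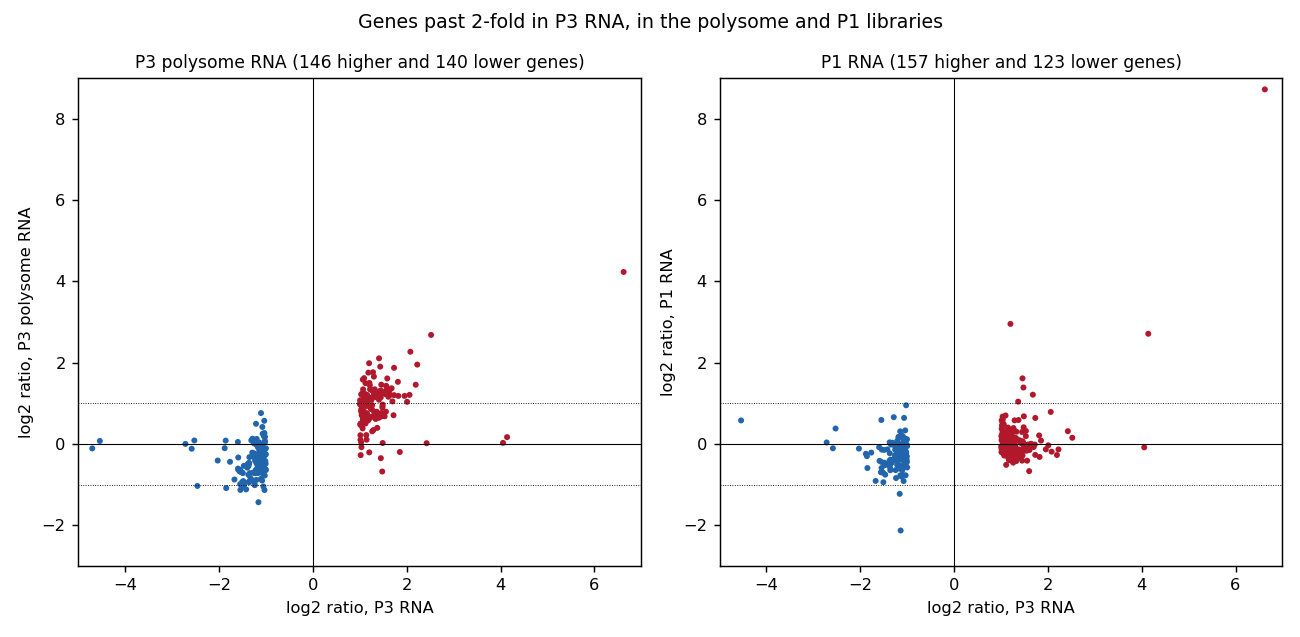
Log2 ratios, Lin28a over control, of the genes past 2-fold in P3 RNA (x axis) in P3 polysome RNA (left, 146 higher and 140 lower genes) and in P1 RNA (right, 157 and 123), without short non-coding genes and with dotted lines at 2-fold. Red points, the higher genes, lie mostly above 0 in polysome RNA and around 0 at P1.

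Some of the most extreme genes rest on uncertain values. Mapk9, a kinase gene, stood at the floor in P3 control and at 15.6 FPKM with Lin28a, while the P1 libraries held 18.4 and 17.3 FPKM and the polysome libraries 13.1 and 13.4 RPKM. Amd1 was at 22.6 and 0.0147 FPKM, yet nearly equal in the polysome libraries, at 15.7 and 16.5 RPKM. Amd1 has near-identical copies between which reads may be split, as have Eif3j2 and Pisd-ps1. Of the 166 higher genes 8 were at the floor in 1 library and of the 171 lower genes 6, and 5 in each set were short non-coding genes. Without both kinds, a choice made after seeing the data, 157 higher and 164 lower genes were left.

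Other single genes with large ratios had no place in a list. Zc3hav1l was at 2.15 and 12.2 FPKM (log2 ratio 2.06) and was also higher with Lin28a at P1, at 11.7 and 21.01 FPKM, and in polysome RNA, at 3.22 and 8.74 RPKM. The immunoglobulin superfamily gene Igdcc3 was at 4.17 and 16.1 FPKM (log2 ratio 1.73), with 18.7 and 29.7 FPKM at P1 and 4.93 and 20.7 RPKM in polysomes. Both genes were thus higher with Lin28a in all 3 pairs of libraries. Rmst, a long non-coding RNA of the midbrain and of neurogenesis, was at 0.972 and 5.08 FPKM (log2 ratio 1.63). Among the lower genes, Gpd1, an enzyme of glycerol phosphate metabolism, was at 13.2 and 2.48 FPKM (log2 ratio -2.03). The AP-1 family factor Batf3 was at 16.9 and 3.93 FPKM (log2 ratio -1.86) and the cholesterol-esterifying enzyme Lcat, made by astrocytes, at 30.4 and 8.22 FPKM (log2 ratio -1.77). The small heat shock protein Cryab was at 41.95 and 13.7 FPKM (log2 ratio -1.55). It was higher with Lin28a at P1, with 1.06 and 2.11 FPKM.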

How the data were processed

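RNA-seq, small RNA and polysome libraries of mouse neural stem cells were read as deposited, each from a file of its own, and grouped by their titles. The RNA-seq values were deposited by the authors as 1 FPKM value per RefSeq gene, with genes that have no estimate at a floor of 4.8e-07, and the polysome values are read as RPKM deposited by the authors. The headers name neither unit. Bowtie 1.0.0, TopHat2 2.0.6, Cufflinks 2.1.1 and build mm9 stand in the submitters' processing notes, without their roles. The small RNA values are counts per mature microRNA, deposited by the authors without normalization, and were scaled here to the library total. RNA-seq libraries are described as poly(A)-selected per the labels, although the kit named for extraction is one for total RNA. FPKM depends on all other genes of a library, so abundant genes that differ shift the rest.

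Ratios were taken as log2((Lin28a + 1)/(control + 1)) for genes at 1 or more in either library, which understates differences of low genes. Past 2-fold means a log2 ratio of 1 or more, or -1 or less. Genes at the floor are listed at it, with no fold. MicroRNA ratios have exact conditional binomial intervals at 95%. The members and the 44 gene lists were chosen with earlier results of these data known, so lists are described by counts and medians beside those of all genes. Named genes are Lin28a and Lin28b, up to 6 members per list with the largest ratios, the metallothioneins, the 25 highest and 25 lowest genes, the 15 highest and 15 lowest at 20 or more in either library, the stem cell and midbrain markers, and, chosen after their values were seen, Drosha, Xpo5, Dis3l2, Nfia, Nfib and the genes whose promoters are shown; a few genes that meet the rule are not reported here. Other pseudocounts, filters and scalings were tried. No columns of other samples were found (0). Scripts were tested on simulated data. The tools were pandas 2.3.3 and numpy 2.4.6 under Python 3.11.15, scipy 1.17.1 for intervals and matplotlib 3.10.9 for figures.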

Additional observations from a re-analysis of the deposited data

How the results depend on the processing

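With 1 library per group, a result is said to move when it changes by over 1.5-fold. The counts past 2-fold depended on the pseudocount. The higher and lower counts of P3 RNA were 343 and 333 with a pseudocount of 0.1 and 40 and 61 with one of 5, in place of 166 and 171. The P1 count in either direction went from 29 to 89 and the polysome count from 132 to 310 with a pseudocount of 0.1. The higher count was 108 among genes at 5 or more in either library, 108 among genes at 1 or more in both, and 329 with both libraries scaled to the same sum. It was 169 with the median set to 0 and 176 after upper quartile scaling, with lower counts of 164 and 154. The median of proneural factors was 1.78 with a pseudocount of 0.1, 0.31 with one of 5, 0.37 with no filter and 0.41 among 9 genes at 1 or more in both libraries. Neuropeptide and transmitter genes had 1.47 with a pseudocount of 0.1 and -0.59 from the 1 gene at 5 or more. Histone genes had 0 with no filter, and ependymal genes -0.62 from 3 genes at 5 or more. Of 43 list medians, 2 changed sign under another scaling, immediate early genes (0.02) and ependymal genes (0.06 and 0.01), and 0.46 was the largest shift under a scaling. Of 120 named genes past 2-fold, 57 were still past it with a pseudocount of 5, and 118, 115 and 116 under the 3 scalings. Of these 120, 0 reversed in sign. Named values within 2-fold were not checked for a change of sign. No symbol was listed more than once, so the choice of row for repeated symbols was not run. No paired analysis was possible because each group held 1 library. Depth limits genes of a few FPKM most, and its size is unknown.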
